A study of Mus musculus with 12 samples.

Results

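The DNA methylation machinery is described here through 8 genes. Dnmt1 is the maintenance methyltransferase, Uhrf1 its guide and Uhrf2 a paralog of Uhrf1. Dnmt3a and Dnmt3b are de novo methyltransferases, and Tet1, Tet2 and Tet3 are dioxygenases. The 8 genes were chosen by name from the gene table of the series. All 8 were present among its 13942 genes, and all 8 passed the filter on low values that 13523 genes passed. RNA was sequenced from retinal pigment epithelium (RPE), the pigmented sheet behind the retina, in 12 libraries of C57BL/6J mice. The 4 groups of 3 libraries were wild type (WT) and Sox9.cKO embryos at E15.5, a late fetal stage, and WT and Sox9.cKO pups at P5, 5 days after birth. Libraries of the genotype Sox9.cKO are called cKO after that label. The sources used here do not name the Cre line, the deleted exons of Sox9, the cells in which the deletion acts or the way RPE was separated. They do not say either whether replicates came from separate animals, so p-values measure only the spread between these libraries.

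A value is a read count per gene that the authors quantile-normalised, which gives every library the same distribution. Its floor is 50 and its median 367.4. The depth behind the values is unknown. Because the values are relative to the rest of each library, and because the tissue is a mixture, fewer cells of a type and less RNA per cell cannot be told apart.

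DNA methylation in mammals sits mainly on cytosines that precede guanines (CpG). After replication UHRF1 recognises CpG sites that carry the mark only on the old strand and recruits DNMT1, which copies it to the new strand. DNMT3A and DNMT3B place the mark on unmethylated DNA, and TET enzymes oxidise methylcytosine, which leads to its loss by dilution or by base excision repair.

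Before these genes are described, 3 facts of the libraries bear on them. Sox9 did not follow its label: its value was 1049 ± 113 in WT and 1010 ± 22.3 in cKO at E15.5 (SD, n = 3), and at P5 it rose from 1192 ± 277 to 2483 ± 405 (SD, n = 3), by 1.07 ± 0.17 on the log2 scale (SE, limma, adjusted p = 0.0316). That call was kept without P5 WT replicate 2, P5 WT replicate 3 or P5 cKO replicate 1 and lost when any of the other 9 libraries was left out (log2 0.93 to 1.09, adjusted p 0.0637 to 0.164). Weighting the libraries (0.68, adjusted p = 0.236) or adding a term for lens signal (0.84, adjusted p = 0.128) ended it too. So did fitting only the 6 P5 libraries (still 1.07) or testing only genes with a mean of at least 4 times the floor (adjusted p = 0.0848). A gene count adds up all exons, so it may not show the deletion, and every genotype direction below is that of libraries labelled cKO. Of 14 RPE markers 13 were in the table, with a summed value of 22990 to 43002 in the E15.5 libraries and 107835 to 222785 in the P5 libraries. Among these, Rpe65, Rgr, Lrat and Kcnj13 were at the floor in all E15.5 libraries, and Rpe65 was also at the floor in the P5 cKO libraries. No other RPE marker was at the floor throughout a group. For genotype limma called 1 of the 13 lower in cKO at E15.5, against 0.00739% of all genes called in either direction. At P5 it called 2 of the 13 lower in cKO, against 0.244%. Photoreceptor markers, 15 genes, summed to 750 to 782 at E15.5, where 12 or 13 of them were at the floor throughout a group. At P5 they summed to 3710, 11845 and 122226 in WT replicates 1 to 3 and to 3740, 60044 and 27307 in cKO replicates 1 to 3. WT replicate 3 and cKO replicate 2 thus held the most photoreceptor signal of their groups. Lens markers at P5 summed to 2092 to 9835 in WT and 9763 to 13914 in cKO, with a median log2 fold change for genotype of 1.42 over 11 genes, 0 of which were called. With age limma called 12 of 12 endothelial markers higher in WT and 9 in cKO (medians 1.71 and 1.42), against 15% and 18% of all genes tested. Of 8 erythroid markers 6 were called lower in WT and 7 in cKO (medians -1.34 and -1.92), against 23.2% and 26.1% of all genes. The 12 mesenchyme and pericyte markers, collagen genes among them, summed to 292193 to 663246, above the RPE sum in every library. The part of these other cell types in the values below was not tested, and only terms for photoreceptor and lens signal were tried. Mean log2 photoreceptor signal was 5.67 to 5.72 at E15.5 and 7.43 to 12.08 at P5. Lens signal in cKO was 6.61 to 7.08 at E15.5 and 8.48 to 9.29 at P5. Neither overlapped between the ages, so a change with age fitted with such a term is an extrapolation.

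The promoters of the maintenance genes are shown first. Uhrf1 and Dnmt1 fell with age, as did genes of S phase, many of which are known targets of E2F transcription factors. RefSeq windows of 250 bases before to 50 after a transcription start (GRCm38.p6) were found for all 8 genes, 13 windows in all. They were searched on both strands for 4 words of the E2F type, TTTCCCGC, TTTGGCGC, TTTGCCGC and TTTCGCGC, where words on opposite strands can share letters. A word was found in 2 of the 13 windows, 1 of Dnmt1 and 1 of Uhrf1. The share with a word was 2.26% of all 32851 windows, 3.72% of 13429 windows of genes in the table, and 38.1% of 21 windows of S-phase and mitosis genes. The sequences are written 5′ to 3′ on the strand of the gene, with the matched word in capitals. In Dnmt1 the word reads on the opposite strand and begins at -219, counted from the start, in an annotated 5′ untranslated exon of a transcript that begins further upstream, and a further word lies at position 34 after the start. In Uhrf1 it begins at -185, in the first intron of 2 transcripts that begin further upstream. The paralog Uhrf2, which lacks any of these words, is shown for comparison.
Dnmt1, chr9:20952824-20952853, minus strand: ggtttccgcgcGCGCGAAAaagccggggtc
Uhrf1, chr17:56304063-56304312, plus strand: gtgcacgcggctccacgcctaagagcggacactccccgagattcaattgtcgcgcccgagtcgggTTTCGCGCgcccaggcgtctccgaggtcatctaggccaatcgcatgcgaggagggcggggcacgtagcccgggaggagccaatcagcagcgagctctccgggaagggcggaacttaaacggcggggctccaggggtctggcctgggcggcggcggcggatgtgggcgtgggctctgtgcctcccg
Uhrf2, chr19:30030263-30030512, plus strand: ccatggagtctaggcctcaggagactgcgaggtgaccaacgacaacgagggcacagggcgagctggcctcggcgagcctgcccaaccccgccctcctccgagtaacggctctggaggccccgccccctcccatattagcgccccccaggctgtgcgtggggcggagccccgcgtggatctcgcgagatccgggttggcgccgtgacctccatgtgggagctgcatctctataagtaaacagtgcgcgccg
A match is a string of letters and does not show that a factor binds there. Uhrf2, Dnmt3a and Dnmt3b also fell with age and had no such word in their windows. A part of E2F factors in any of these falls was not tested. The windows of the 8 genes held between 2 and 57 CpG sites (median 28), against a median of 20 in windows of genes in the table and 7 in all windows.

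Between E15.5 and P5 the methyltransferase and UHRF genes fell in both genotypes, and no Tet gene was called. In WT 5 of the 8 genes were called lower (Uhrf1, Dnmt1, Uhrf2, Dnmt3b and Dnmt3a) and 0 higher. Among all genes tested 23.2% were called lower and 38.2% were called in either direction. In cKO the same 5 genes were called lower and 0 higher, against 26.1% lower and 43.7% in either direction among all genes. The median log2 fold change of the 8 genes was -0.75 in WT and -0.62 in cKO, and that of all genes was -0.07 and -0.08. Calls were made with limma at an adjusted p under 0.05 over all genes tested. When WT replicate 3 and cKO replicate 2 of P5, the libraries richest in photoreceptor signal, were both left out, 7 of the 8 genes were called lower in each genotype, Tet1 and Tet3 having joined the 5. That setting was chosen after the data were seen. The share of all genes called under it was not counted, so the 7 of 8 has no background to be read against.

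**Figure D1:**
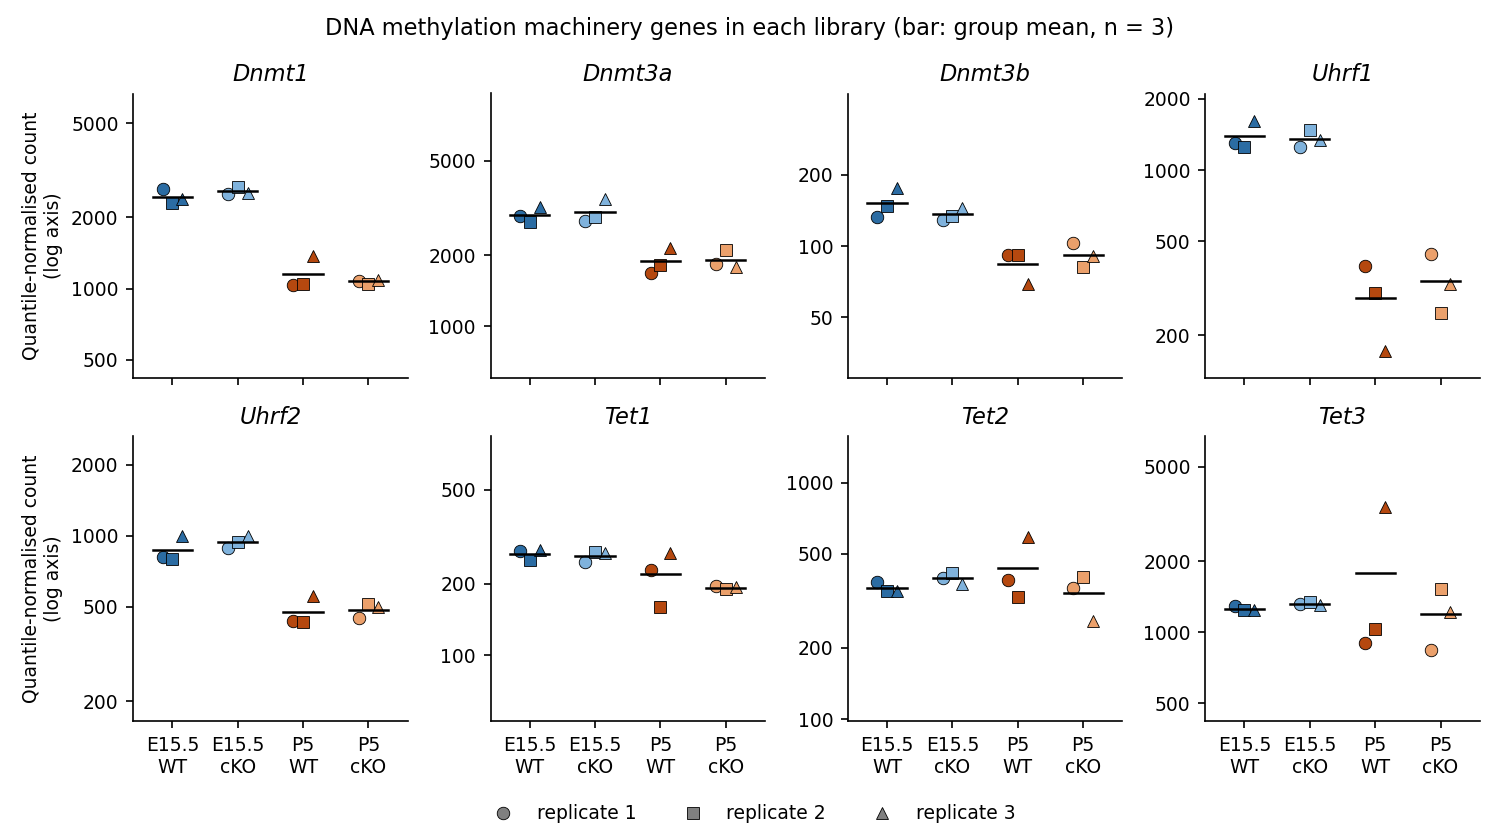
Quantile-normalised value of each of the 8 genes in the 12 libraries, on a log axis, with 1 panel per gene and the 4 groups side by side. Marker shapes stand for the replicate number and bars for the group mean. Uhrf1, Dnmt1, Uhrf2, Dnmt3a and Dnmt3b lie lower in every P5 library than in any E15.5 library, and Tet3 spreads from 838.5 to 3378 at P5.

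Uhrf1 (ENSMUSG00000001228, chromosome 17, 56303321 to 56323486, plus strand, GRCm38), the reader of hemimethylated CpG, changed more than any other of the 8 genes. In WT its values were 1298, 1257 and 1613 at E15.5 and 392.4, 303.7 and 172.4 at P5. In cKO they were 1252, 1483 and 1346 at E15.5 and 443.6, 247.8 and 331.2 at P5. The ages stood far apart in both genotypes. In WT the log2 fold change was -2.33 ± 0.28 (SE), a 5.03-fold fall on the log2(value + 1) scale (limma, adjusted p = 0.000171). In cKO it was -2.03 ± 0.28 (SE), a 4.08-fold fall (adjusted p = 0.000318). Within the libraries Uhrf1 dropped from percentile 84.6 to 89.1 of all genes in the E15.5 WT libraries to percentile 30.2 to 52.1 at P5.

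Dnmt1 (ENSMUSG00000004099, chromosome 9, 20907209 to 20959888, minus strand), the enzyme that UHRF1 recruits, fell less and stayed among the more abundant genes. Its WT values were 2625, 2301 and 2381 at E15.5 and 1036, 1044 and 1372 at P5. Its cKO values were 2506, 2688 and 2533 at E15.5 and 1081, 1048 and 1089 at P5. Of the 6 P5 libraries 5 lay close together, and WT replicate 3 stood above them. From E15.5 to P5 its log2 value changed by -1.09 ± 0.11 (SE) in WT (2.13-fold, adjusted p = 6.74e-05 by limma) and -1.26 ± 0.11 (SE) in cKO (2.40-fold, adjusted p = 2.58e-05). At P5 Dnmt1 still ranked at percentile 80.3 to 86.4 in WT.

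Uhrf2 (ENSMUSG00000024817, chromosome 19, 30030513 to 30093722, plus strand) is a paralog of Uhrf1 with similar domains that does not replace it in maintenance. WT libraries held 817.1, 796.3 and 993.8 at E15.5 and 434.7, 433.5 and 557.5 at P5. Those of cKO held 886.1, 938.9 and 999.3 at E15.5 and 448.4, 517.0 and 498.2 at P5. All P5 values lay below all E15.5 values. With age its log2 fold change was -0.87 ± 0.13 (SE) in WT (adjusted p = 0.000593 by limma) and -0.95 ± 0.13 (SE) in cKO (adjusted p = 0.000309), falls of 1.83-fold and 1.93-fold.

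Dnmt3a (ENSMUSG00000020661, chromosome 12, 3806007 to 3914443, plus strand), the de novo enzyme that also works in mature neurons, was the de novo gene with the higher level. At E15.5 it stood at 2916, 2763 and 3186 in WT and at 2796, 2883 and 3440 in cKO. At P5 it stood at 1687, 1822 and 2140 in WT and at 1827, 2094 and 1773 in cKO. The ages did not overlap. Dnmt3a changed on the log2 scale by -0.65 ± 0.12 (SE) in WT (1.57-fold, adjusted p = 0.00214 by limma) and -0.68 ± 0.12 (SE) in cKO (1.60-fold, adjusted p = 0.00149). With a term for lens signal in the model the cKO value was -0.42 and was no longer called (adjusted p = 0.10, the highest of its alternatives, whose lowest was 0.000417). Lens markers summed to 2172 to 3055 in E15.5 cKO libraries and 9763 to 13914 in P5 cKO libraries. With no overlap between these ages, the lens term and age cannot be told apart in cKO.

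Dnmt3b (ENSMUSG00000027478, chromosome 2, 153649450 to 153687730, plus strand), the de novo enzyme of the early embryo and of centromeric repeats, was near the floor. At E15.5 it read 133.4, 148.3 and 176.3 in WT and 128.5, 134.3 and 145.4 in cKO. At P5 it read 91.8, 91.8 and 69.2 in WT and 102.8, 81.3 and 90.4 in cKO. These values lie within a few multiples of the floor of 50, which limits how far a fall can be seen. Its log2 fold change with age was -0.85 ± 0.17 (SE) in WT (1.81-fold, adjusted p = 0.00263 by limma) and -0.57 ± 0.17 (SE) in cKO (1.49-fold, adjusted p = 0.0179). The cKO call was lost without E15.5 cKO replicate 3 (-0.52, adjusted p = 0.0626), P5 cKO replicate 2 (-0.49, adjusted p = 0.0626) or P5 cKO replicate 3 (-0.57, adjusted p = 0.052). It was also lost with a term for photoreceptor signal (-0.22, adjusted p = 0.35), a signal that did not overlap between the ages. Across its alternatives the adjusted p lay between 0.00684 and 0.35.

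For each of these 5 genes the 3 libraries of P5 lay below the 3 of E15.5 in both genotypes, with an exact two-sided permutation p of 0.1, the smallest that 3 against 3 allows. Among all genes tested 29.4% in WT and 34.1% in cKO fell without overlap. Dnmt3a and Dnmt3b are each overlapped by an antisense gene, Dnmt3aos and Dnmt3bos. Tet2 and Tet3 also have annotated neighbours on the opposite strand within their span. Whether reads were counted by strand is not given in the sources used here, so reads of these partners cannot be told apart from those of the genes. Annotated genes on the same strand overlap Dnmt1 (Mir7081), Tet1 (Gm48353 and Gm26479) and Tet3 (Mir6374 and 5430434F05Rik), where counting by strand would not separate reads. Overlap was taken over the whole span of a gene, introns included.

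Tet1 (ENSMUSG00000047146, chromosome 10, 62804570 to 62908996, minus strand) is a dioxygenase with a CXXC domain, which binds unmethylated CpG. Its WT values were 275.3, 253.4 and 277.3 at E15.5 and 229.9, 159.4 and 271.3 at P5, so the ages overlapped. Its cKO values were 248.6, 272.3 and 269.7 at E15.5 and 195.1, 190.3 and 193.7 at P5, with no overlap. A log2 fold change of -0.32 ± 0.18 (SE, 95% interval -0.71 to 0.07) in WT did not pass (adjusted p = 0.177 by limma), nor did -0.45 ± 0.18 (SE, 95% interval -0.83 to -0.06) in cKO (adjusted p = 0.0617). Without P5 WT replicate 3 both passed, WT at -0.49 (adjusted p = 0.0263) and cKO at -0.45 (adjusted p = 0.0208). Leaving out P5 WT replicate 2 also gave a cKO call (adjusted p = 0.0128). Library weights gave a WT value of -0.67 with an adjusted p of 5.65e-05. Over all alternatives the adjusted p ran from 5.65e-05 to 0.609 in WT and from 0.0128 to 0.809 in cKO.

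Tet2 (ENSMUSG00000040943, chromosome 3, 133463679 to 133545139, minus strand) is the TET enzyme that lost its CXXC domain to the neighbouring gene Cxxc4. Its values were 378.4, 347.3 and 348.6 in WT and 395.6, 413.9 and 372.8 in cKO at E15.5. At P5 they were 387.5, 327.0 and 589.5 in WT and 359.9, 400.2 and 260.6 in cKO. The P5 libraries lay on both sides of the E15.5 libraries. Its log2 fold change with age was 0.23 ± 0.21 (SE, 95% interval -0.24 to 0.71) in WT and -0.23 ± 0.21 (SE) in cKO, with adjusted p of 0.408 and 0.403 by limma. With a term for lens signal the WT value was 0.52 and passed (adjusted p = 0.0282, the lowest of its alternatives, whose highest was 0.979).

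Tet3 (ENSMUSG00000034832, chromosome 6, 83362373 to 83459084, minus strand), the TET enzyme of the oocyte and of neurons, had the highest level of the 3 and the widest spread at P5. At E15.5 it was tightly grouped, at 1286, 1247 and 1241 in WT and 1310, 1340 and 1309 in cKO. At P5 it was at 901.9, 1035 and 3378 in WT and 838.5, 1519 and 1216 in cKO. WT replicate 3 stood above every other library, and 4 of the 6 P5 libraries stood below every E15.5 library. The log2 fold change of 0.22 ± 0.41 (SE, 95% interval -0.68 to 1.12) in WT and of -0.19 ± 0.41 (SE) in cKO did not pass (adjusted p of 0.689 and 0.726 by limma). Without P5 WT replicate 3 the WT value was -0.38 (adjusted p = 0.13). With that library and P5 cKO replicate 2 both left out, the values were -0.38 in WT (adjusted p = 0.0432) and -0.39 in cKO (adjusted p = 0.0412). With a term for photoreceptor signal they were -1.08 (adjusted p = 0.00175) and -1.55 (adjusted p = 0.000194). That signal did not overlap between the ages, so the values fitted with it are extrapolations. Over all alternatives the adjusted p ran from 0.00175 to 0.769 in WT and from 0.000194 to 0.95 in cKO.

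**Figure D2:**
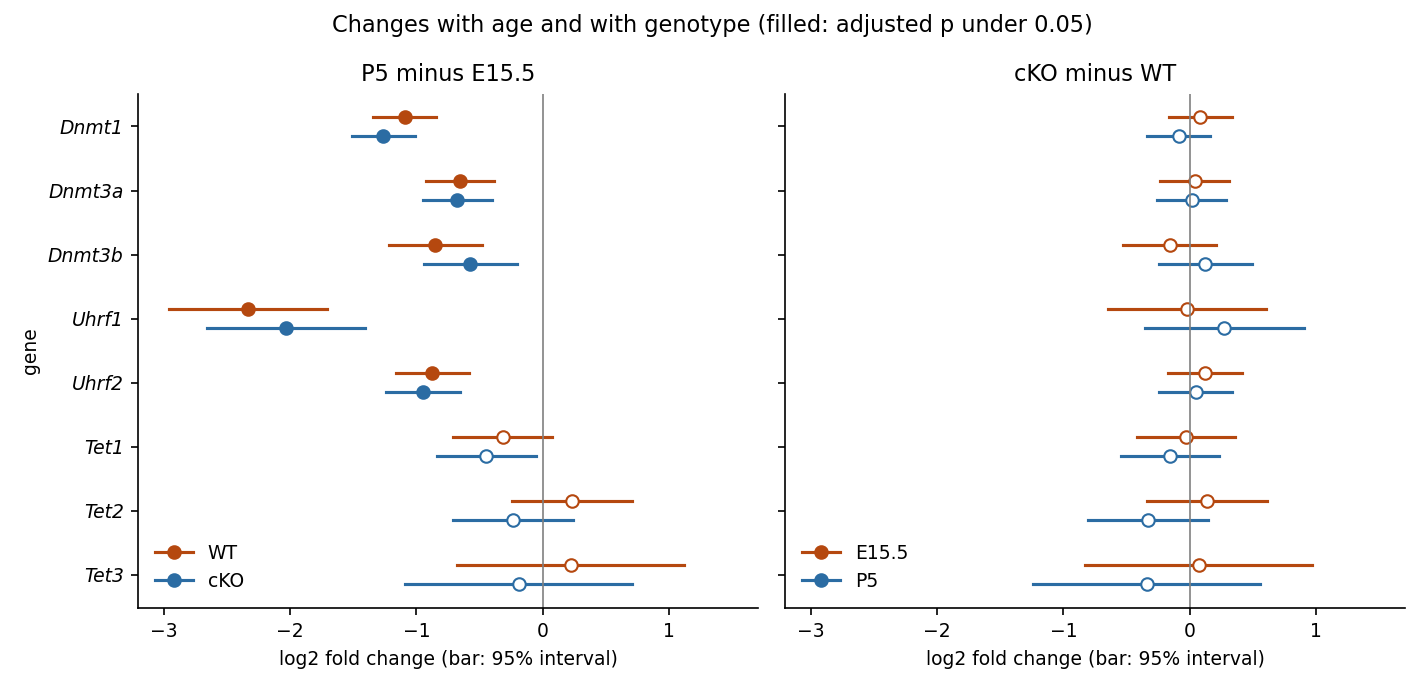
Log2 fold change of the 8 genes with its 95% interval, for P5 minus E15.5 (left, 1 point per genotype) and for cKO minus WT (right, 1 point per age). Filled points were called. The 5 methyltransferase and UHRF genes lie left of 0 in both genotypes, Uhrf1 farthest at -2.33 and -2.03, while every genotype interval at either age includes 0.

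The genes were then compared within libraries, which asks whether partners or paralogs changed unequally with age. In 6 pairs the log2 difference was tested between ages by an exact two-sided permutation test, stratified by genotype, whose smallest p is 0.005, with adjustment over the 6 pairs. Uhrf1 fell more than Dnmt1: the difference Dnmt1 minus Uhrf1 rose by 1.003 on the log2 scale (1.24 in WT and 0.77 in cKO, exact p = 0.005, adjusted p = 0.015). Uhrf1 also fell more than its paralog Uhrf2, by -1.27 (-1.46 in WT and -1.08 in cKO, exact p = 0.005, adjusted p = 0.015). In both pairs all 6 P5 libraries lay beyond all 6 E15.5 libraries. Tet1 moved down relative to Tet2 by -0.38 (-0.55 in WT and -0.21 in cKO, exact p = 0.02, adjusted p = 0.04), a call lost with a pseudocount of 50 (-0.32, adjusted p = 0.05). Without any single library but P5 WT replicate 1 or P5 cKO replicate 3 it was lost too, with values from -0.41 to -0.31. The change was 0.05 for Dnmt3a minus Dnmt3b (exact p = 0.81), -0.40 for Tet1 minus Tet3 (exact p = 0.16) and -0.02 for Tet2 minus Tet3 (exact p = 0.945), none of which passed.

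Levels were also set beside each other per kilobase of exonic sequence. They are approximate, because values are quantile-normalised and the length counts every annotated exon of a gene, whichever transcripts are expressed. In E15.5 WT the level per kilobase was 330.2 for Dnmt1 and 326.2 for Uhrf1, whose libraries overlapped, then 178 for Dnmt3a, 101 for Uhrf2, 75.4 for Tet3, 29.9 for Dnmt3b, 21.2 for Tet2 and 17.4 for Tet1. All other neighbours in that order were separated by more than their spread, and E15.5 cKO had the same order. In P5 WT the level per kilobase was 156 for Dnmt1, 113 for Dnmt3a, 106 for Tet3, 68.0 for Uhrf1, 55.3 for Uhrf2, 25.8 for Tet2, 16.5 for Dnmt3b and 14.2 for Tet1. There Dnmt3a overlapped with Tet3, Tet3 with Uhrf1, Uhrf1 with Uhrf2, and Dnmt3b with Tet1. In P5 cKO Dnmt1 (145) and Dnmt3a (114) again led, followed by Uhrf1 (80.0), Tet3 (71.3), Uhrf2 (56.8), Tet2 (20.2), Dnmt3b (17.9) and Tet1 (12.5), where Uhrf1 overlapped with Tet3, Tet3 with Uhrf2, and Tet2 with Dnmt3b. In WT Uhrf1 overlapped with Dnmt1 before birth and with Uhrf2 after it.

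The comparison of genotypes asks whether these genes differ in RPE of mice labelled as lacking Sox9. At E15.5 limma called 0 of the 8 genes, against 0.00739% of all genes tested, and 0 of the 8 had an unadjusted p under 0.05, against 0.362% of all genes. The log2 fold changes, cKO minus WT, ran from -0.16 for Dnmt3b to 0.14 for Tet2, with adjusted p of 1, and the 95% intervals together spanned -0.83 to 0.97. The spread of each gene is shared by both ages in this fit, so the wider spread at P5 enters the E15.5 test. For Tet3 the SE was 0.41, although its E15.5 libraries lay between 1241 and 1340. The test at E15.5 was thus strict, and the lack of calls does not show that the genes were equal. Only Tet3 had groups that did not overlap, higher in cKO by 0.07 (exact permutation p = 0.1), as 2.11% of all genes did, while 2.99% were lower without overlap. At P5 limma again called 0 of the 8, against 0.244% of all genes, and 0 of the 8 had an unadjusted p under 0.05, against 7.68%.

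At P5 the largest genotype differences were -0.34 for Tet3 (95% interval -1.24 to 0.56), -0.33 for Tet2 (-0.80 to 0.14) and 0.27 for Uhrf1 (-0.35 to 0.90), all log2 fold changes of cKO minus WT. The intervals were narrower for Dnmt1 (-0.34 to 0.16), Dnmt3a (-0.26 to 0.29) and Uhrf2 (-0.24 to 0.34). A 2-fold genotype difference lay outside the interval of every gene at P5 except that of Tet3. For Dnmt3b the interval cannot decide on a 2-fold fall in cKO. Its P5 WT values, 69.2 to 91.8, lay less than 2-fold above the floor, so such a fall could not be read in full. The intervals of all 8 genes use 1 spread per gene, shared by all 12 libraries. For genes such as Uhrf1 and Tet2 the P5 libraries spread more on the log2 scale than those of E15.5. Their intervals therefore do not exclude a 2-fold difference for the P5 libraries taken alone. The interaction term, which asks whether the change with age differed between genotypes, called 0 of the 8 by limma, with values from -0.47 (Tet2) to 0.30 (Uhrf1) and an adjusted p that rounds to 1, and 0 of the 8 had an unadjusted p under 0.05. Among all genes 0.0592% were called for the interaction and 2.65% had an unadjusted p under 0.05. Both genotype comparisons and the interaction counted 0 of the 8 under every alternative.

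The spread at P5 moved with other signals of the libraries. The mean log2 value of 25 S-phase and mitosis genes was 9.74 to 9.84 in the E15.5 libraries, and at P5 it was 8.55, 8.40 and 7.79 in WT and 8.61, 8.04 and 8.33 in cKO. WT replicate 3, the lowest of these, also had the lowest Uhrf1 (172.4), and cKO replicate 1, the highest, had the highest Uhrf1 (443.6). The P5 libraries stood in nearly the same order by Uhrf1 and by this list, with WT replicate 2 and cKO replicate 3 exchanged. For the photoreceptor list this mean at P5 was 7.43, 8.89 and 12.08 in WT and 7.45, 11.22 and 10.11 in cKO, and Tet3 followed its order except that the lowest libraries, both replicate 1, were exchanged. At P5 the photoreceptor list ran in the reverse order of the S-phase list, apart from an exchange of both replicate 1 libraries. By order at P5, the S-phase and photoreceptor signals thus cannot be told apart. Dnmt1 did not follow the S-phase list within P5: its highest value (1372) was in the library where that list was lowest. These orders describe 6 libraries that also share their tissue mixture, and their part in the values of Uhrf1 and Tet3 was not tested.

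**Figure D3:**
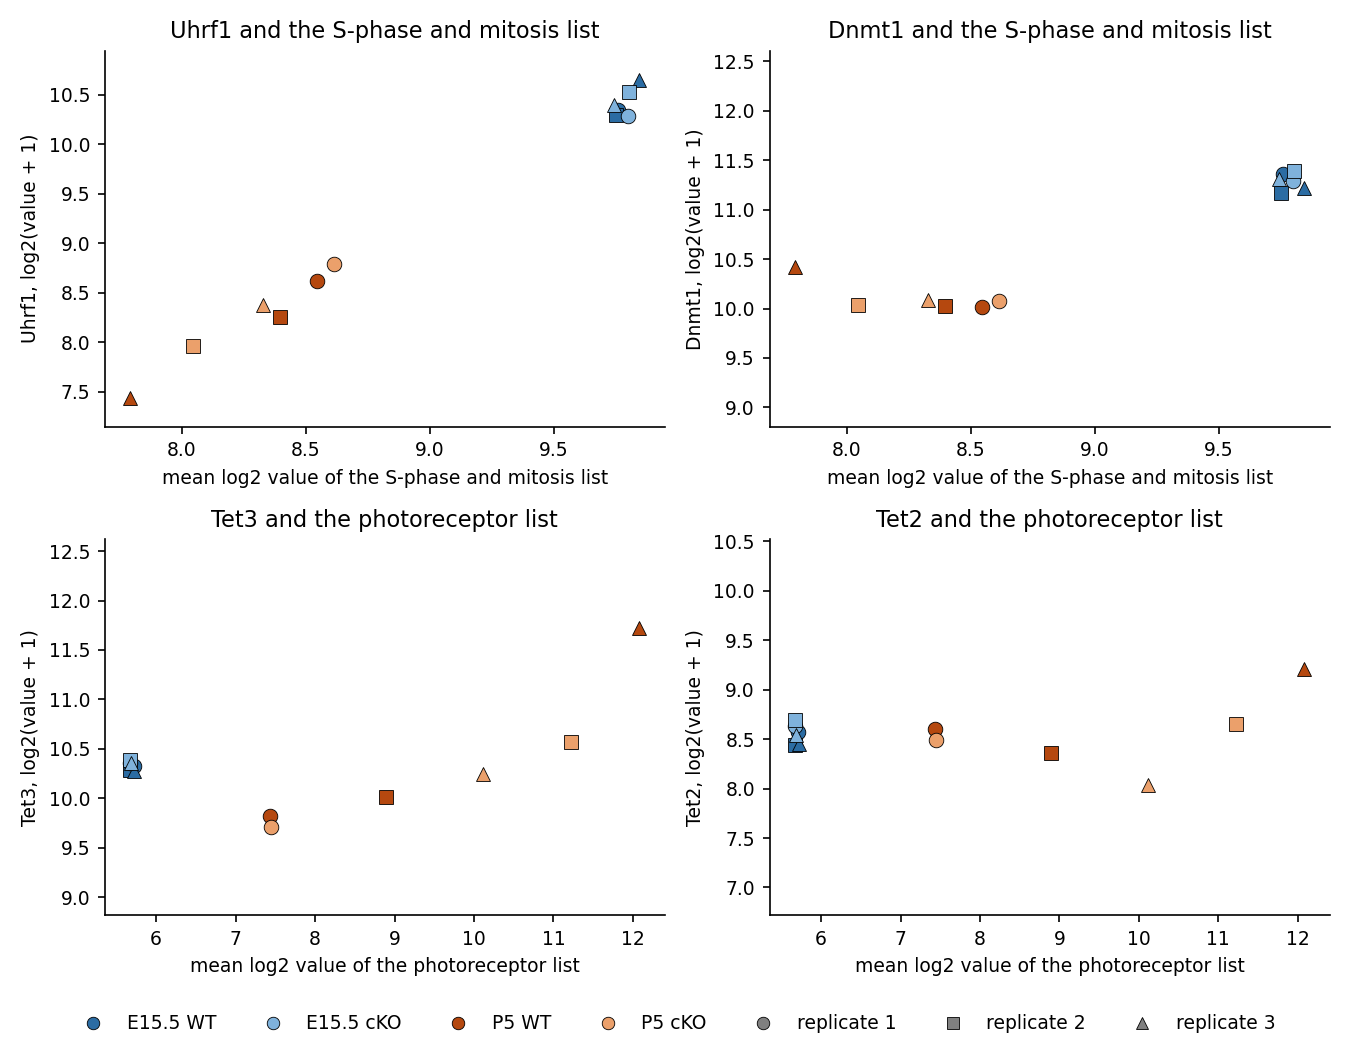
Log2 value of Uhrf1 and Dnmt1 against the mean log2 value of the S-phase and mitosis list, and of Tet3 and Tet2 against that of the photoreceptor list, with 1 point per library, colours for groups and marker shapes for replicates. At P5 Uhrf1 is lowest in WT replicate 3, where the S-phase mean is 7.79, and Tet3 is highest there, where the photoreceptor mean is 12.08.

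Lists of partner genes, which together with the 8 genes make up the pathway, were counted by the same limma calls. The shares to read them against are the 23.2% of all genes that fell in WT and the 26.1% that fell in cKO, and the 2028 of 13523 genes (15%) that rose in WT and 2379 (18%) that rose in cKO. Of 13 partners of replication-coupled maintenance, 7 fell in WT and 8 in cKO and 0 rose (median log2 fold change -0.51 and -0.49). Cdca7, which targets the remodeller HELLS to nucleosomes, fell by 3.20 ± 0.24 on the log2 scale (SE) in WT, and Hells itself changed by -2.13. The replicative DNA ligase Lig1 (-1.28), Cdca7l (-1.06) and the sliding clamp Pcna (-0.88) fell too. The deubiquitinase Usp7, a stabiliser of UHRF1 and DNMT1, had -0.18 in WT, which did not pass.

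All 25 S-phase and mitosis genes fell in WT and 24 of 25 fell in cKO (median -1.56 and -1.42). The replication licensing factor Cdc6 (-2.17), the checkpoint kinase Bub1 (-2.08), the mitotic kinase Plk1 (-1.88) and cyclin B1 (Ccnb1, -1.78) had the largest log2 fold changes of the list in WT. Uhrf1 lay near the largest of these in both genotypes, at -2.33 in WT beside -2.17 for Cdc6 and at -2.03 in cKO beside -2.13, within its SE of 0.28. Dnmt1 changed less than the median of the list, by -1.09 and -1.26.

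Of 15 listed partners of de novo methylation 12 were tested, and 7 fell in WT and 8 in cKO and 0 rose (median -0.55 and -0.69). Among them were the Polycomb methyltransferase Ezh2 (-1.25 in WT), the heterochromatin protein HP1 alpha (Cbx5, -1.08), the imprint-protecting zinc finger protein Zfp57 (-0.85) and its corepressor Trim28 (-0.85). Of 13 tested genes of base excision and repair of oxidised cytosine, 6 fell in WT and 7 in cKO and 0 rose (median -0.77 and -0.63). Uracil glycosylase Ung (-1.47 in WT), the nick sensor Parp1 (-1.08), the abasic endonuclease Apex1 (-0.94) and the glycosylase Neil3 (-0.85) led. Thymine DNA glycosylase Tdg, which removes the oxidised bases that TET enzymes make, changed by -0.77 in cKO, which was called, and by -0.44 in WT, which did not pass.

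The methyl donor S-adenosylmethionine is supplied by the methionine and folate cycles. Of 14 tested genes of these cycles 5 fell and 2 rose in WT, and 6 fell and 3 rose in cKO (median -0.50 and -0.45). In WT the serine hydroxymethyltransferase Shmt1 (-1.94), the S-adenosylhomocysteine hydrolase Ahcy (-1.63), methionine synthase Mtr (-1.42) and the folate enzyme Mthfd1 (-1.09) fell on the log2 scale. Mat2a, which makes S-adenosylmethionine, had -0.10 in cKO and a value nearer 0 in WT, neither of which passed. At P5 Ahcyl2, a relative of Ahcy, was higher in libraries labelled cKO by 1.16 ± 0.19 (SE, adjusted p = 0.0411 by limma). Like that of Sox9, this call was kept without P5 WT replicate 2, P5 WT replicate 3 or P5 cKO replicate 1 and lost without any of the other 9 libraries (adjusted p up to 0.236), while the log2 fold change stayed between 0.97 and 1.33 in all 12 such fits. A term for lens signal ended it (0.84, adjusted p = 0.136), as did weighting the libraries (0.86, adjusted p = 0.093) and centring on housekeeping genes (1.04, adjusted p = 0.0692). Fitting only the 6 P5 libraries (still 1.16) or genes with a mean of at least 4 times the floor (adjusted p = 0.0848) ended it as well.

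The share of readers of the mark that fell in WT was near that of all genes. Of 12 methyl-CpG readers 3 rose and 3 fell in WT, and 3 rose and 2 fell in cKO (median 0.21 and 0.20). Zbtb4, a zinc finger reader, rose in WT (1.10 on the log2 scale), as did Zbtb38 (0.59), while the glycosylase Mbd4 (-0.98) and Wdr76 (-0.93) fell. Of 8 binders of unmethylated CpG 3 fell and 1 rose in each genotype, the last being Cxxc4 (1.11 in WT), the neighbour of Tet2. The demethylases Kdm2a (-0.58) and Kdm2b (-0.84) and their relative Fbxl19 (-0.89) fell.

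TET enzymes need 2-oxoglutarate, and vitamin C raises their activity. Of 12 genes tied to the supply of these compounds, 3 rose and 2 fell in WT, and 6 rose and 2 fell in cKO (median 0.08 and 0.26). The 5 of 12 called in WT are near the 38.2% of all genes called in either direction. The vitamin C transporter Slc23a2 (1.03 in WT) and the mitochondrial dehydrogenase subunit Idh3a (0.42) rose. The mitochondrial isocitrate dehydrogenase Idh2 (-0.92) fell. Apart from Ahcyl2 and an imprinted gene described among the other observations, no gene of the 10 pathway lists was called for genotype at either age.

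**Figure D4:**
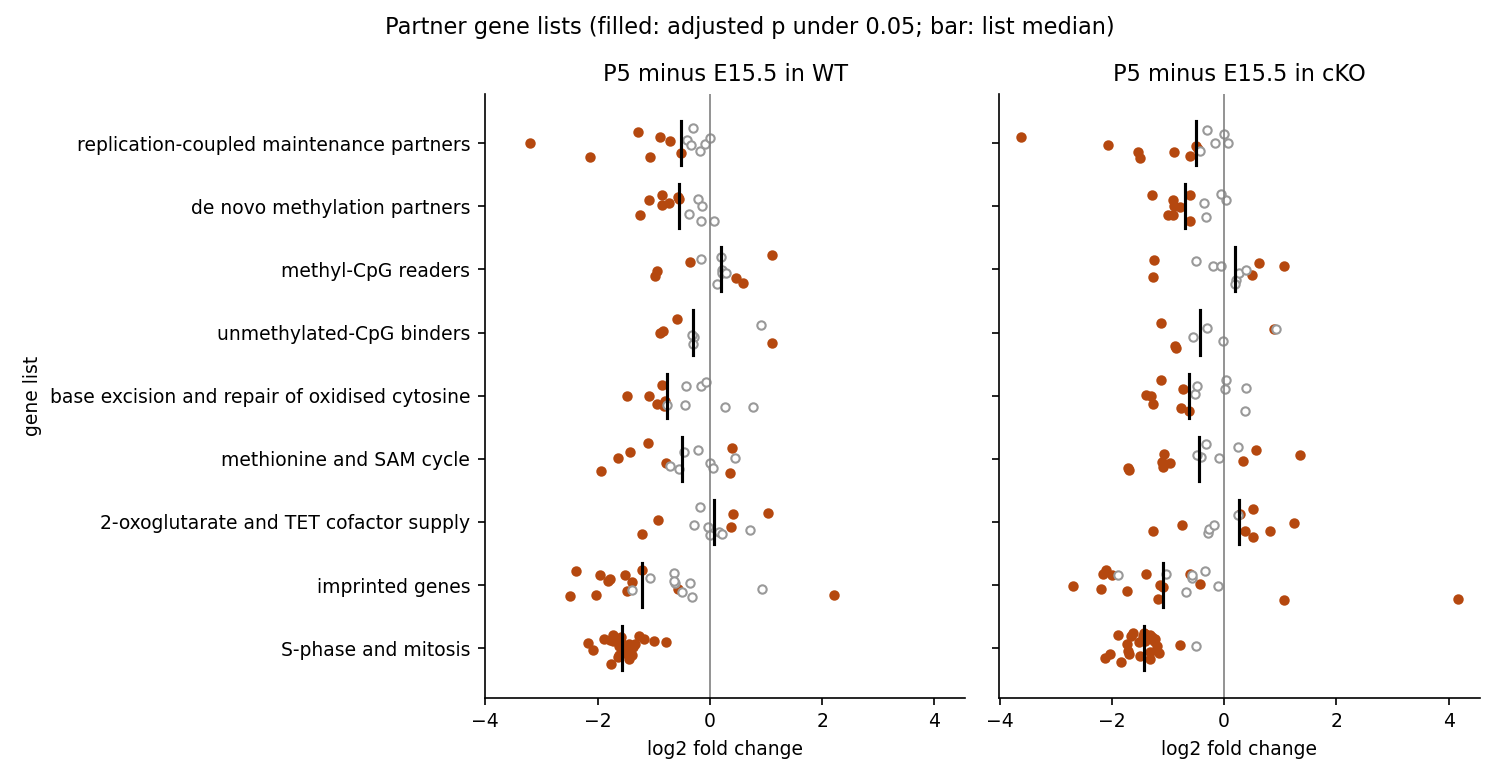
Log2 fold change from E15.5 to P5 of each tested gene of 9 lists in WT and in cKO, with called genes filled and a bar at each list's median. The S-phase and mitosis list has the lowest medians of the 9, at -1.56 and -1.42, and the methyl-CpG readers are centred above 0 at 0.21 and 0.20.

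Genes whose profile over the 12 libraries was most like that of each of the 8 were found by the root mean square difference between log2 profiles, each centred on its own mean. Closest to Uhrf1 were the mitotic checkpoint gene Bub1 (0.14), the chromatin remodeller Hells (0.15) and the kinase gene Stk26 (0.17). Closest to Dnmt1 were the chaperone gene Hsp90ab1 (0.08), Smyd5 (0.08) and Tead3 (0.10), and closest to Uhrf2 were Trim32 (0.09), Dcakd (0.09) and the splicing factor gene Srsf3 (0.10). The neighbours of Dnmt3a were the polymerase subunit gene Pold3, Men1 and Zfp180 (0.08 each), and those of Dnmt3b the ribosomal gene Rpl41, Rpl7l1 (0.09 each) and Rpl6 (0.10). Tet3 was followed most closely by Jarid2 (0.06), Srgap3 (0.08) and Baz2b (0.11), Tet1 by Msl2 (0.06), Fem1c and Mmgt1 (0.08 each), and Tet2 by Fchsd2 (0.10), Jmjd1c (0.11) and Osgin2 (0.12).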

How the data were processed

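Reads were aligned with TopHat2 2.0.10 to mm10 and counted with HTSeq, per the submitters' processing notes. The values are signal on a count-like scale: the authors quantile-normalised the gene counts and raised low values to 50, per the name of the deposited table. All 12 columns held the same sorted values, and 1376 of them (9.87%) lay at the floor in each. The sources used here do not name the annotation, the strand setting or the depth, so no counting error is attached to a value. Libraries were grouped by the genotype, age and title labels.

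Values were taken as log2(value + 1). Genes above the floor in at least 3 libraries were tested with limma 3.58.1 in R 4.3.3, with 1 mean per group over 12 libraries, moderated variances with a mean-variance trend, two-sided tests and Benjamini-Hochberg adjustment over 13523 genes. Every adjusted p is from limma unless said to be over 6 pairs. The model was tested on simulated data. Fold changes on this scale understate those of genes near the floor. Positions and exonic lengths come from GENCODE M21 (GRCm38), where 13927 of 13942 identifiers matched, and promoter windows from RefSeq (GRCm38.p6).

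The members and the lists were chosen with earlier results of these data known. Named genes are all 8 members, up to 4 genes per list (called in WT first, then by size) and the 3 nearest profiles per member; 1 gene that this rule names is not reported here. Pcna, Usp7, Tdg and Mat2a were named after their values were seen, for their roles. Alternatives covered pseudocount, filters, centring, library weights, signal terms, the replicate number as a block and each library left out.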

Additional observations from a re-analysis of the deposited data

How the results depend on the processing

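Of 987 recomputed log2 fold changes of the 8 genes, 968 kept their side of the threshold without a reversal, 6 fell short of it, 11 newly passed and 2 reversed. In 67 of the 968 the sign changed while neither value was called. The count of genes called with age was 5 in each genotype and ran from 4 to 7 over all alternatives. It was 5 to 6 in WT and 4 to 6 in cKO when 1 library was left out. Shares of all genes called were counted for the main fit only. The reversals were those of Tet3 in WT, from 0.22 to -1.08 with a photoreceptor term and to -0.38 without both photoreceptor-rich P5 libraries. The value with the term is an extrapolation, because photoreceptor signal did not overlap between the ages. The cause of the reversals was not tested. Tet1 minus Tet2 was -0.32 with a pseudocount of 50 (adjusted p = 0.05) and ran from -0.47 to -0.31 with 1 library left out, where the adjusted p reached 0.11. Tet1 minus Tet3 ran from -0.60 to -0.18 and passed without P5 WT replicate 1 (adjusted p = 0.03).

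Centring on housekeeping genes moved the median of all genes at P5 for genotype from -0.02 to -0.13 and with age in WT from -0.07 to 0.04. The 5 methyltransferase and UHRF genes kept their direction with age, and Dnmt3b in cKO was no longer called (-0.57, adjusted p = 0.06). With a replicate block in the model the counts stayed at 5, 5, 0, 0 and 0, and the P5 genotype calls of Sox9 (still 1.07, adjusted p = 0.0874) and Ahcyl2 (still 1.16, adjusted p = 0.127) were lost. Same-numbered libraries deviated together in some pairs only, with correlations from -0.34 to 0.78, so the numbers were not taken as a pairing.

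Of 498 list counts 22 moved by over 1.5 times. Without a share of all genes for each setting, these moves cannot be told apart from a general rise or fall in calls. Library weights raised the calls in WT to 11 for maintenance partners, de novo partners, base excision and the methionine cycle, 7 for unmethylated-CpG binders, 9 for TET cofactor supply and 20 for imprinted genes. A lens term lowered those in cKO to 3 for de novo partners, base excision and cofactor supply and 2 for unmethylated-CpG binders. A photoreceptor term in cKO gave 10 for readers and 5 for cofactor supply, and a mean of at least 4 times the floor gave 3 for readers. The 6 WT libraries alone gave 2 for unmethylated-CpG binders. Leaving out 1 library gave 2 for that list (E15.5 WT replicate 3 or P5 WT replicate 2 in WT, E15.5 cKO replicate 3 in cKO), 3 for cofactor supply in WT (E15.5 WT replicate 3), 9 for imprinted genes in cKO (E15.5 cKO replicate 2) and 1 for germline genes in cKO (P5 cKO replicate 1). Without both photoreceptor-rich P5 libraries unmethylated-CpG binders gave 7 in cKO.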

Other observations

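Imprinted genes are expressed from 1 parental copy, which is set by methylation placed in the germline and kept by the maintenance machinery. By limma calls 11 of 21 imprinted genes fell and 1 rose from E15.5 to P5 in WT, and 12 fell and 2 rose in cKO. Their medians were -1.20 and -1.10 on the log2 scale. Among all genes tested 23.2% fell and 15% rose in WT, and 26.1% fell and 18% rose in cKO. In WT Peg10, a retrotransposon-derived gene of the placenta (-2.50), the growth regulator Dlk1 (-2.38) and the long non-coding RNA H19 (-2.03) fell. Nap1l5 rose by 2.21 in WT and 4.16 in cKO. At P5 it was higher in libraries labelled cKO by 2.19 ± 0.33 (SE, adjusted p = 0.0278 by limma), a call kept without E15.5 cKO replicate 2, P5 WT replicate 3 or P5 cKO replicate 1 and lost without any of the other 9 libraries (adjusted p 0.0507 to 0.164), while the log2 fold change stayed between 1.896 and 2.609 in all 12 such fits. It was also lost with library weights (2.10, adjusted p = 0.0588) and with a term for lens signal (2.23, adjusted p = 0.0897). Fitting only the 6 P5 libraries (still 2.19) or genes with a mean of at least 4 times the floor (adjusted p = 0.0848) ended it as well. A gene count does not separate the parental copies, and methylation itself was not measured.

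Germline genes kept silent in somatic cells by promoter methylation were mostly not among the genes of the table, whose filter before deposit is not known here, so absence from it is no measurement. Of 17 listed, 3 were in it, of which 2, Brdt and Tex15, passed the filter on low values. By limma 0 of the 2 were called with age or for genotype.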
